A study of Mus musculus with 2 samples.

Results

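The S100 calcium-binding proteins were followed in single-cell RNA from the livers of mice with carbon tetrachloride (CCl4) injury. The group held 7 genes, S100a1, S100a4, S100a6, S100a10, S100a11, S100a13 and S100a16, of 18 features whose symbol starts with S100 and 31054 features in all. They were chosen by family and on their measured levels in these same libraries, so the levels and ratios below are a description and carry no test. Each gene was compared between the libraries within cells that reached a marker score. A stellate cell had at least 15 UMIs (unique molecular identifiers, each a counted RNA molecule) of Lrat, Ecm1, Hgf and Reln per 10000, an endothelial cell at least 8 of Kdr, Stab2 and Ptprb, and a Kupffer cell at least 8 of Clec4f, Cd5l, Vsig4 and Csf1r. Cells that reached more than 1 of these scores were left out.

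There were 2 libraries, 1 for each genotype, of liver cells enriched for hepatic stellate cells by enzymatic digestion and a density gradient. All mice were male, on a C57BL/6 background, and had received CCl4, a hepatocyte toxin, for 4 weeks together with tamoxifen and diphtheria toxin. Both genotypes carried p16-CreERT2, a tamoxifen-inducible recombinase under p16 (Cdkn2a) control, and a Rosa26 reporter for tdTomato and the diphtheria toxin receptor. The p16-Alb-LRTD mice also carried Alb-DreERT2, a second inducible recombinase driven by the albumin promoter, so that hepatocytes with high p16 expressed the receptor and were killed by the toxin. The p16-LRTD mice lacked Alb-DreERT2 and kept these hepatocytes. The comparison therefore asks how S100 transcripts differed in the non-hepatocyte cells of livers with and without p16-high hepatocytes. The age of the mice and the number pooled in a library are not given in the sources used here, so every difference is between 2 libraries with no replicate check.

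S100 proteins are small calcium sensors that fold around a pair of EF-hand loops and act as dimers. They have no enzyme activity, and on binding calcium they expose a surface that grips a partner such as an annexin, a myosin heavy chain or a scaffold protein. In liver injury they are known from activated mesenchymal cells, biliary cells and infiltrating myeloid cells. S100a6 (calcyclin) is a growth-associated member that binds the calcyclin-binding protein Cacybp, S100a10 and S100a11 pair with the annexins Anxa2 and Anxa1 at membranes, and S100a4 is often used as a marker of fibroblasts and macrophages. S100a10 differs from its relatives in having lost calcium binding.

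All 7 genes lie on chromosome 3 of GRCm38, between positions 90511034 and 93564643. S100a1 (chr3:90511034-90514392, minus strand) and S100a13 (chr3:90514435-90524581, plus strand) start head to head, and S100a16 (chr3:90537254-90543151), S100a4 (chr3:90603771-90606045) and S100a6 (chr3:90612882-90624181) follow on the plus strand. S100a11 (chr3:93520488-93526287) and S100a10 (chr3:93555080-93564643), also on the plus strand, lie apart from them. The GENCODE annotation places 121 genes in this span, and 80 of these are in the feature list, 14 of them S100 genes. Of the 80, no gene outside the family reached a mean of 5 CPM (counts scaled to a class total of 1000000 UMIs) in stellate cells. S100a4 overlaps the annotated gene Gm42674, and whether reads were counted by strand is not given in the sources used here.

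Of the members, S100a6 differed most between the libraries in stellate cells, and S100a11 did so in Kupffer cells. The sequences just upstream of the annotated starts are shown for these 2 genes and for the gap that S100a1 and S100a13 share. They were taken from the RefSeq promoter windows of GRCm38.p6, 250 bases before to 50 after a start, which held 6 of the 7 genes. S100a10 has no entry. Capitals mark exact matches on either strand to 5 motifs: the AP-1 site spelled TGANTCA, the site of STAT factors written as TTCNNNGAA, the TEAD family's short motif GGAATG, the SP1 box with letters GGGCGG, and the TATA box given by TATAAA. None of the marked matches overlap.
S100a6, chr3:90612644-90612881, plus strand: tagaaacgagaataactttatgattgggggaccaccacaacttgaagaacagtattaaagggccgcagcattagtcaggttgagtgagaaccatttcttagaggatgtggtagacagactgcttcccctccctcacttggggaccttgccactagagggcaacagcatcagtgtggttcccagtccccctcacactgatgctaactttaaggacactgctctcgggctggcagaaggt
S100a11, chr3:93520246-93520487, plus strand: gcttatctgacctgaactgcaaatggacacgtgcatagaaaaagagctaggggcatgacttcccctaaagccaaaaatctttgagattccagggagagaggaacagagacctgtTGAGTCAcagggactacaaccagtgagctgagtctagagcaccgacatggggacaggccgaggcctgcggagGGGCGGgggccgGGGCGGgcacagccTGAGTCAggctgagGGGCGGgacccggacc
S100a1-S100a13 gap, chr3:90514393-90514434, plus strand: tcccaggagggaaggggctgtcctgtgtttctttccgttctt

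The S100a11 stretch held 2 AP-1 and 3 SP1 matches, whereas the S100a6 window and the windows of S100a1 and S100a13 held none of the 5 motifs. S100a4 had 1 TATA match, 31 bases before its RefSeq start, and the downstream of the 2 S100a16 windows had 1 AP-1 and 1 SP1 match. Among all 32851 RefSeq windows of the same length, 7.81% held an AP-1 match, 35.7% an SP1 match, 13.6% a TATA match, 8.30% a STAT match and 14.7% a TEAD match. These are letter matches and no binding was measured.

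After filtering, 9004 of 11149 barcodes were kept in p16-LRTD and 7416 of 8806 in p16-Alb-LRTD, from 193746596 and 162219167 UMIs. Stellate cells numbered 7852 and 6621, in the same order, with medians of 17024.5 and 18136 UMIs per cell. Endothelial cells numbered 430 and 283, with medians of 11781 and 11992 UMIs. Kupffer cells numbered 283 and 178, and here the depth was less alike, with medians of 19514 and 25101.5 UMIs. The 6 check markers of each class, which the score had not used, summed to their highest level in their own class in both libraries. The stellate list summed to 26301 and 28809 CPM in stellate cells and to at most 528 CPM elsewhere, the endothelial list to 6148 and 4933 CPM in endothelial cells and at most 665 CPM elsewhere, and the Kupffer list to 10473 and 13046 CPM in Kupffer cells and at most 80.9 CPM elsewhere. The libraries shared 95 barcode sequences, 22 of which were among the kept cells of each library.

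S100a6 stood apart from the other members in stellate cells, the collagen-producing cells of the space of Disse. Its level was 108.4 CPM in p16-LRTD (95% Poisson interval 107 to 110, 15469 UMIs) and 17.6 CPM in p16-Alb-LRTD (16.9 to 18.4, 2206 UMIs). The level was 6.15-fold lower in the library from mice that had lost p16-high hepatocytes, a log2 ratio of −2.62 (95% counting interval −2.69 to −2.56). It ranked 12 from the lowest ratio of 10179 genes with a mean of at least 5 CPM. These intervals, as all others here, cover counting error alone and not the spread between mice.

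The other members differed less in stellate cells, and all 7 log2 ratios were below 0, as were 60.7% of those of all genes with a mean of at least 5 CPM. S100a11 was the most abundant, at 624.6 CPM in the p16-LRTD library against 433.4 CPM in the other (log2 ratio −0.53, −0.54 to −0.51). S100a10 stood at 435.4 and 316.4 CPM (−0.46, −0.48 to −0.44). Both annexin partners were therefore lower in p16-Alb-LRTD by less than 1.5-fold. S100a13, a protein that assists the release of Fgf1, stood at 66.9 and 49.9 CPM (−0.42, −0.47 to −0.38). S100a1, best known from heart muscle, stood at 53.1 and 40.3 CPM (−0.40, −0.45 to −0.35). The rarest members were S100a16, at 4.27 and 2.69 CPM (−0.66, −0.86 to −0.47), and S100a4, at 2.43 and 1.25 CPM (−0.95, −1.23 to −0.67). The direction of S100a4 turned when cells above the upper limits on genes and UMIs were kept, at 2.87 and 3.46 CPM (0.27, 0.08 to 0.47).

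In all, 3 of the 7 members were at least 1.5-fold lower in stellate cells of p16-Alb-LRTD and none was 1.5-fold higher, against 3.05% and 3.03% of all 10179 genes with a mean of at least 5 CPM. The count was 2 with the upper limits lifted. S100a6 was the only one of the 3 that reached this mean. The median log2 ratio was −0.53 over all 7 members, with S100a4 and S100a16 below this mean included, and −0.05 over all genes that reached it. Because members were picked with these ratios known, the counts describe the choice as well as the cells. The lower S100a16 level rested on leaving out cells of several classes, since with the marker rule alone it stood at 8.59 and 8.85 CPM (log2 ratio 0.04). A single p16-LRTD cell held 41 of the 346 S100a4 UMIs and a single p16-Alb-LRTD cell 25 of 157.

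**Figure D1:**
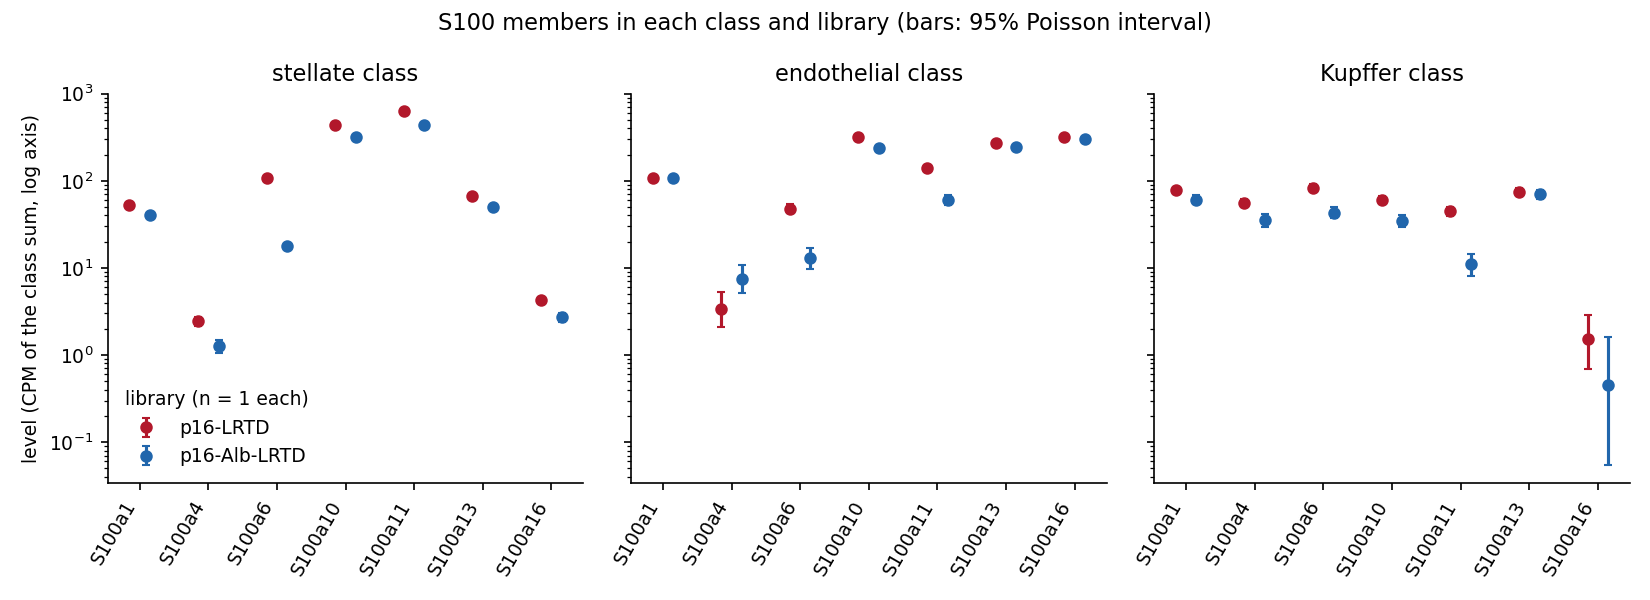
Level of each S100 member (CPM of the class sum, log axis) in stellate, endothelial and Kupffer cells, with 1 point per library and bars for the 95% Poisson interval. S100a6 in stellate cells shows the widest gap, 108.4 against 17.6 CPM, S100a16 is high in the endothelial class alone of the 3 (316 and 301 CPM), and S100a10 and S100a11 lead in stellate cells.

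Within the stellate class S100a6 was carried by few cells, unlike S100a10 and S100a11. In p16-LRTD 72.7% of stellate cells had no S100a6 UMI, and the 479 cells with 10 or more UMIs (6.10%) held 69.5% of all S100a6 UMIs. In p16-Alb-LRTD 86.5% had none, and 23 cells (0.347%) with 10 or more held 19.6%. Cells with a strong S100a6 signal were thus much rarer in p16-Alb-LRTD, while cells with a single UMI were closer in frequency, at 9.83% and 7.57%. The 5% of stellate cells richest in the gene held 63.6% and 71.9% of the S100a6 UMIs, but 15.8% and 14.2% of those of S100a10 and 15.2% and 13.5% of those of S100a11. S100a4 and S100a16 were found in too few stellate cells for this share to be read. S100a10 and S100a11 were spread over nearly all stellate cells, with medians of 7 and 10 UMIs per cell in p16-LRTD and 5 and 7 in p16-Alb-LRTD.

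**Figure D2:**
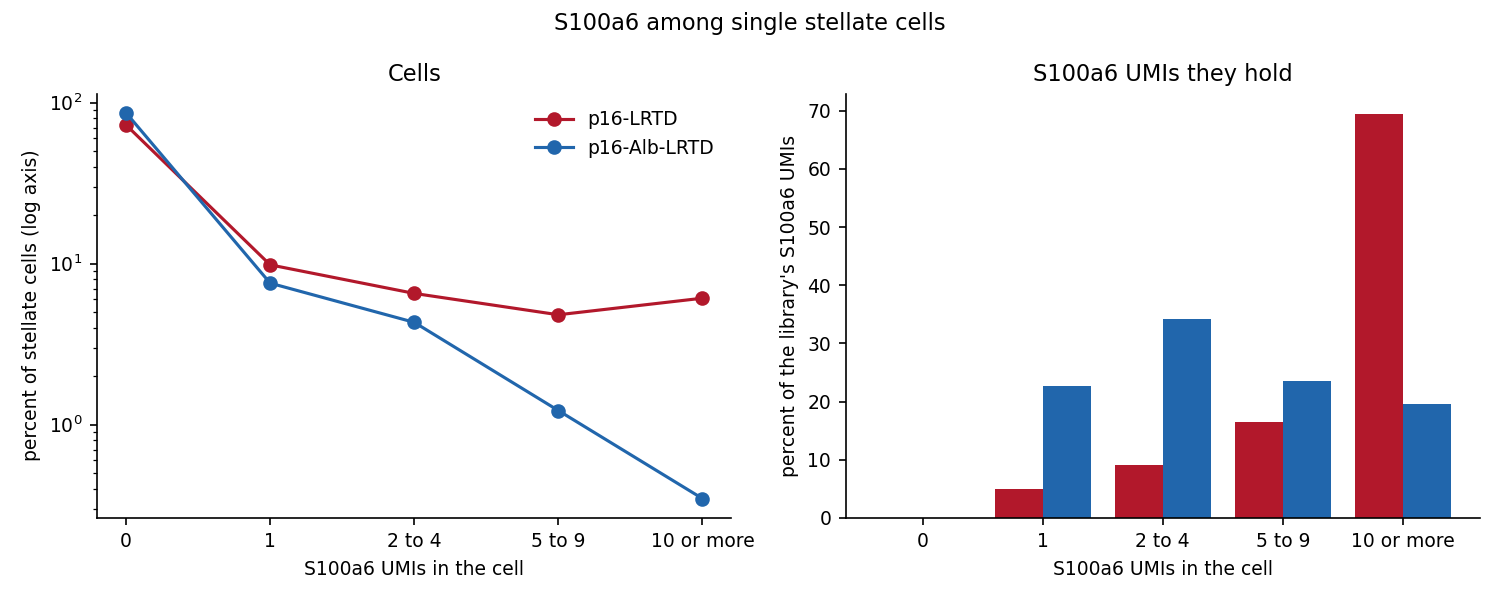
Left, percent of stellate cells (log axis) by the number of S100a6 UMIs in the cell; right, percent of each library's S100a6 UMIs that those cells held. Cells with 10 or more UMIs made up 6.10% of stellate cells in p16-LRTD against 0.347% in p16-Alb-LRTD, and held 69.5% and 19.6% of the S100a6 UMIs.

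Shares of cells with a UMI were compared after each cell was thinned at random to 5000 UMIs, which left out at most 16 shallower cells of a class in a library. S100a6 was then detected in 16.7% of p16-LRTD stellate cells (95% Clopper-Pearson interval 15.9 to 17.5) and 5.90% of p16-Alb-LRTD stellate cells (5.34 to 6.49), from 27.3% and 13.5% before thinning. S100a11 was detected in 92.6% and 84.7% and S100a10 in 84.6% and 75.2%. The shares of S100a13 (27.4% and 22.1%) and S100a1 (21.5% and 17.6%) were also lower in p16-Alb-LRTD. S100a4 and S100a16 were each detected in fewer than 2% of stellate cells in either library.

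**Figure D3:**
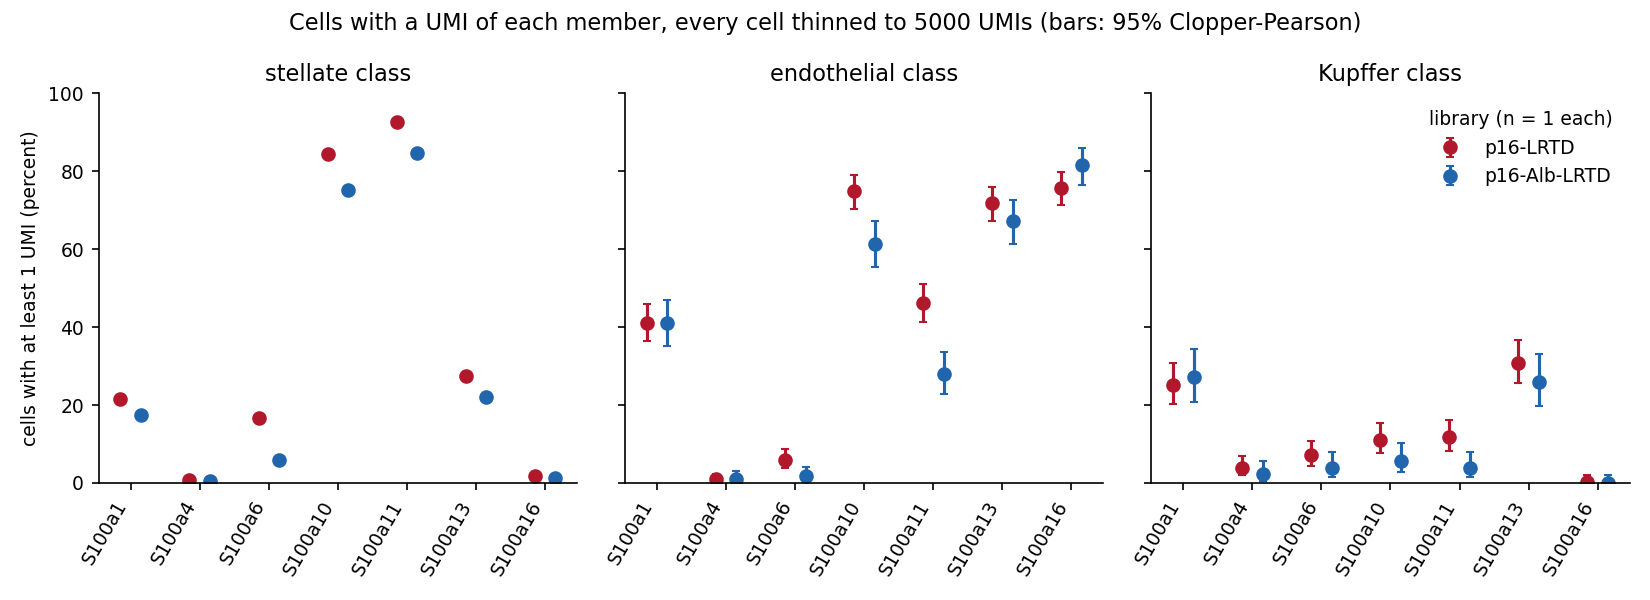
Percent of cells with at least 1 UMI of each member after every cell was thinned to 5000 UMIs, by class and library, with 95% Clopper-Pearson intervals. S100a6 was found in 16.7% and 5.90% of p16-LRTD and p16-Alb-LRTD stellate cells, and S100a16 in 75.8% and 81.6% of endothelial cells but at most 1.81% of stellate and 0.360% of Kupffer cells.

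Stellate cells with S100a6 also had more collagen and more S100a16 than those without. In thinned cells, S100a16 was 9.52-fold higher in S100a6-positive than in S100a6-negative stellate cells of p16-LRTD (15.7 and 1.65 CPM) and 7.28-fold higher in p16-Alb-LRTD (13.3 and 1.83 CPM). The sum of the fibrillar collagen transcripts Col1a1, Col1a2 and Col3a1 was 4.47-fold higher in p16-LRTD cells with S100a6 and 2.62-fold higher in such p16-Alb-LRTD cells. The other members followed less closely. S100a1 and S100a13 were both 1.56-fold higher in S100a6-positive cells of p16-LRTD, and 1.37-fold and 1.22-fold in p16-Alb-LRTD. S100a11 was 1.37-fold and 1.09-fold higher, and S100a10 1.22-fold higher in p16-LRTD, with an interval that held 0 in p16-Alb-LRTD (log2 −0.03, −0.15 to 0.09). S100a4 had 41 UMIs in the 1308 p16-LRTD positive cells but 5 in the 390 of the other library, which leaves its folds of 5.68 and 2.75 imprecise.

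The share of collagen-rich stellate cells itself differed between the libraries, and the members were therefore compared within bins of collagen level. Stellate cells of both libraries were divided into 4 bins at the pooled quartiles of Col1a1, Col1a2 and Col3a1 UMIs, which fell at 14.3, 23.1 and 51.0 per 10000. A bin is a range of a score and not a cell type. The top bin held 36.8% of p16-LRTD but 10.995% of p16-Alb-LRTD stellate cells. It held 95.9% of the p16-LRTD S100a6 UMIs but 61.8% of those in the other library.

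Within bins the S100a6 difference was smaller and changed direction. The log2 ratio was −1.21 in the lowest bin (6.32 and 2.74 CPM) and −0.64 in the next (6.35 and 4.08 CPM). In the third bin S100a6 was higher in p16-Alb-LRTD, at 15.9 CPM against 10.4 CPM (log2 ratio 0.62, 0.42 to 0.82). In the top bin it was lower again, at 96.0 CPM against 243 CPM (−1.34, −1.42 to −1.26). That bin has no upper bound, and its summed collagen level was 16565 CPM for p16-LRTD but 8980 CPM for p16-Alb-LRTD, so the cells in it were not alike in collagen.

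A finer division into 8 bins, added after these values were seen, brought the collagen levels closer together. The log2 ratio of S100a6 was below 0 in the lowest 4 of these bins (−1.61, −0.78, −0.98 and −0.27, the last with an interval that held 0). It was 0.35 in the next, again with an interval that held 0, and 0.88 (0.63 to 1.12) in the one after, where collagen stood at 4108 and 3975 CPM. In the bin just below the top, with collagen at 7675 and 6953 CPM, S100a6 stood at 61.6 and 61.0 CPM (log2 ratio −0.01, −0.14 to 0.12). In the highest of the 8 bins, where collagen still differed (22887 and 16218 CPM), S100a6 stood at 371 and 221 CPM (−0.75, −0.86 to −0.64). This bin held 1654 p16-LRTD stellate cells but 156 of the other library. With equal weight to each bin the log2 ratio of S100a6 over all stellate cells was −1.16 for 4 bins and −0.54 for 8, compared with −2.62 without bins. What part the makeup of the stellate class has in the S100a6 difference was not tested beyond these values.

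**Figure D4:**
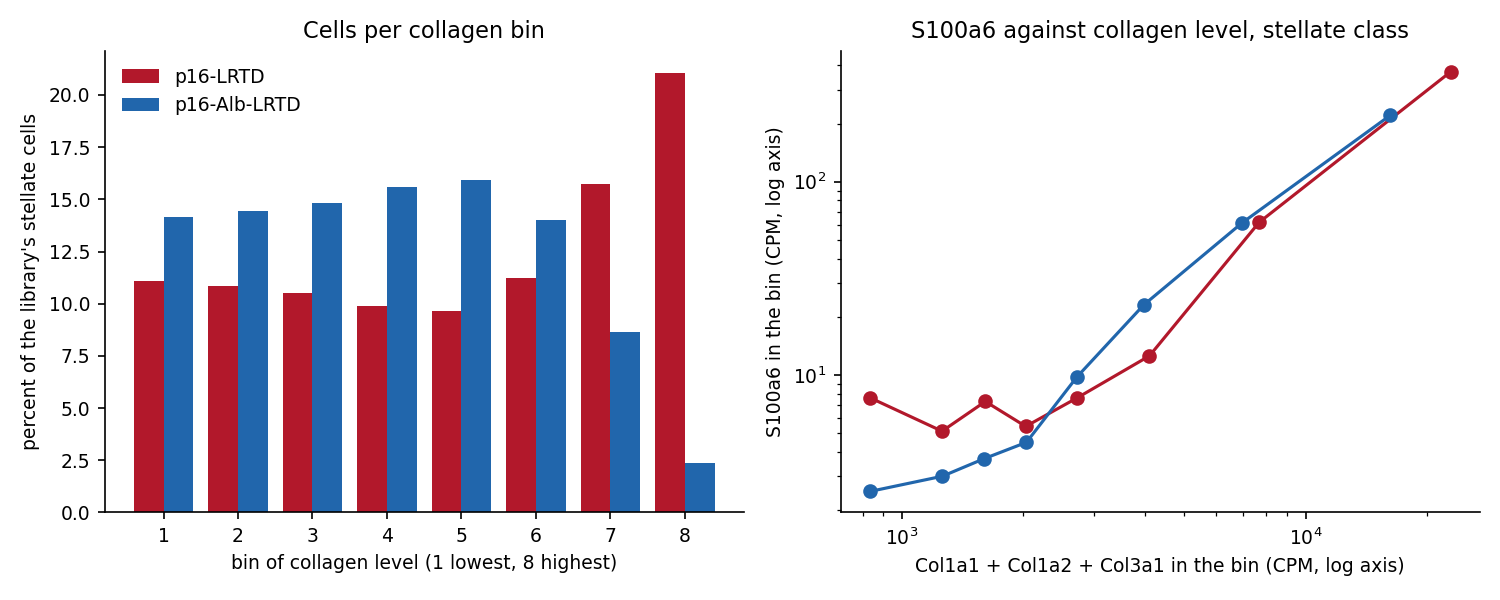
Left, percent of each library's stellate cells in 8 bins of summed Col1a1, Col1a2 and Col3a1 level; right, S100a6 level of each bin against its collagen level (both in CPM, log axes). The top bin held 1654 p16-LRTD and 156 p16-Alb-LRTD cells, and in the bin below it the libraries had 61.6 and 61.0 CPM of S100a6.

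S100a10 and S100a11 behaved differently from S100a6, being lower in p16-Alb-LRTD in each of the 4 bins. Their log2 ratios were −0.27, −0.32, −0.37 and −0.56 for S100a10 and −0.27, −0.35, −0.37 and −0.52 for S100a11 from the lowest to the highest bin, with no interval that held 0. With equal weight to the bins both stood at −0.39. For S100a1 the interval held 0 in the 3 lower bins and the ratio was −0.33 in the top bin (−0.45 to −0.22). S100a13 ran from −0.07 to −0.42. S100a16 was above 0 in every bin (0.22, 0.68, 0.80 and 0.25), with an interval clear of 0 in the third alone, although it was below 0 over all stellate cells.

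Cells with markers of other types were present in the stellate class in different numbers. The fibroblast or mesothelial list (10 genes with Dpt, Pi16 and Msln among them, at least 5 UMIs per 10000) was reached by 260 p16-LRTD stellate cells (3.31%) and by 114 in the other library (1.72%). S100a6 was 806 CPM in these p16-LRTD cells against 211 CPM in the p16-Alb-LRTD ones, which amounted to 28.3% and 19.3% of all stellate S100a6 UMIs. The smooth muscle list was reached by 676 (8.61%) and 99 (1.495%) stellate cells, where S100a6 was low, at 16.8 and 6.20 CPM. Dividing cells numbered 187 (2.38%) and 22 (0.332%), with S100a6 at 119 CPM in p16-LRTD and 1 UMI in all in p16-Alb-LRTD. Without the cells that reached any of the 6 lists of other types, 6898 and 6403 stellate cells remained, with S100a6 at 84.6 and 14.5 CPM (log2 ratio −2.54). S100a4 then stood at 1.63 and 1.19 CPM (−0.46) and S100a16 at 3.28 and 2.28 CPM (−0.53), so that S100a6 was the single member still 1.5-fold lower.

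In endothelial cells the members formed a different order. S100a16 led, at 316 CPM with p16-high hepatocytes present and 301 CPM without, and did not differ beyond counting error (log2 ratio −0.07, −0.17 to 0.04). S100a10 was nearly as abundant in p16-LRTD alone, at 315 CPM against 240 CPM in p16-Alb-LRTD (−0.39, −0.51 to −0.28). S100a13 stood at 272 and 243 CPM (−0.16, −0.28 to −0.05). In p16-Alb-LRTD S100a10 and S100a13 were thus alike, and both lay below S100a16. In p16-LRTD the counting intervals of S100a16 and S100a10 overlapped almost wholly. S100a1 stood at 107 and 106 CPM, with a ratio indistinguishable from 0 (−0.01, −0.19 to 0.17).

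The endothelial differences in S100a10 and S100a11 were carried by many cells. S100a10 was present in 391 of the 430 endothelial cells with p16-high hepatocytes present and in 242 of the 283 without, and in thinned cells it was detected in 74.9% and 61.5%. The S100a11 level was 142 CPM in p16-LRTD (872 UMIs in 314 of 430 cells) and 60.3 CPM in p16-Alb-LRTD (240 UMIs in 147 of 283 cells), and the log2 ratio was −1.23 (−1.45 to −1.03). In thinned cells S100a11 was detected in 46.2% and 27.9% of endothelial cells. Without cells that reached a list of other types the S100a11 levels were 127 and 59.7 CPM (−1.09). When cells that also reached the stellate or Kupffer score were kept, S100a11 stood at 220 and 153 CPM and the ratio shrank to −0.53, below 1.5-fold.

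S100a6 and S100a4 in endothelial cells rested on a handful of cells. S100a6 stood at 47.8 CPM (294 UMIs) in p16-LRTD and 13.1 CPM (52 UMIs) in p16-Alb-LRTD (log2 ratio −1.87, −2.33 to −1.44), but a single p16-LRTD cell held 144 of the 294 UMIs. The 2 p16-LRTD endothelial cells that reached the fibroblast or mesothelial list held 222 of them. Without these 2 cells S100a6 was 11.8 and 13.1 CPM (0.14), and without all cells that reached a list of other types 7.71 and 3.05 CPM (−1.34, 46 and 12 UMIs). With the upper limits lifted the ratio was −0.45, and without infiltrating macrophage-list cells −3.87. S100a4 was higher in p16-Alb-LRTD, at 7.53 CPM against 3.41 CPM (1.14, 0.29 to 2.02), with 30 UMIs in 4 cells against 21 UMIs in 11. In p16-Alb-LRTD a single cell, which reached the infiltrating macrophage list, held 27 of the 30. Without cells of any other list 7 and 3 UMIs remained.

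In endothelial cells 2 members were at least 1.5-fold lower in p16-Alb-LRTD and 1 was 1.5-fold higher, where 13.5% of 9858 genes were that much lower and 6.44% that much higher. The count of lower members was 1 without fibroblast or mesothelial-list cells, under the marker rule alone and with the upper limits lifted, and the member that was higher, S100a4, was at −2.04 without infiltrating macrophage-list cells. The median log2 ratio was −0.16 over the members and −0.10 over all genes.

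In the Kupffer class, named for the resident macrophages of the sinusoid, S100a16 was close to 0 and the other members stood between 10.95 and 82.9 CPM. S100a11 had the lowest log2 ratio of the 7 with all cells of the class included. Its level was 44.9 CPM in p16-LRTD (267 UMIs in 87 of 283 cells) against 10.95 CPM in p16-Alb-LRTD (49 UMIs in 33 of 178 cells), and the log2 ratio was −2.04 (−2.51 to −1.59). It ranked 18 from the lowest of 9514 genes. In thinned cells S100a11 was found in 11.9% of Kupffer cells in p16-LRTD (8.31 to 16.3) but 3.95% in p16-Alb-LRTD (1.60 to 7.98).

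S100a6 stood at 82.9 and 42.9 CPM in Kupffer cells (log2 ratio −0.95, −1.20 to −0.71) and S100a10 at 60.6 and 34.7 CPM (−0.81, −1.09 to −0.53). S100a4 stood at 55.3 and 35.1 CPM (−0.66, −0.94 to −0.38) but was found in 15 and 8 cells. A single p16-Alb-LRTD cell held 87 of the 157 S100a4 UMIs and a single cell 98 of the 192 S100a6 UMIs. These 3 ratios depended on which cells were kept. With the upper limits on genes and UMIs lifted, S100a6 was at −0.24, S100a4 at 0.14 and S100a10 at −0.59. Among cells with 10000 to 30000 UMIs they were at −4.18, −4.72 and −2.28. S100a1 stood at 77.7 and 60.6 CPM (−0.36, −0.58 to −0.14), and S100a13 at 74.3 and 70.0 CPM (−0.09, −0.30 to 0.12). S100a16 had 9 UMIs in p16-LRTD and 2 in p16-Alb-LRTD, a ratio too imprecise to place (−1.76, −5.01 to 0.51). In this class 5 members were at least 1.5-fold lower, 4 of them with a mean of at least 5 CPM, and none was 1.5-fold higher, against 6.83% and 5.21% of 9514 genes. The fifth is S100a16, with its 9 and 2 UMIs. The count was 3 with the upper limits lifted, under the marker rule alone, with class thresholds 1.5 times as high and without Csf1r in the Kupffer score, and 2 at a fold of 2.

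Cells with infiltrating macrophage transcripts (a list that includes Spp1, Ccr2, Gpnmb, Ly6c2 and Chil3) differed in number within the Kupffer class, with 63 of 283 cells (22.3%) in p16-LRTD and 14 of 178 (7.87%) in p16-Alb-LRTD. They held 282 of 329 S100a4 UMIs, 395 of 493 S100a6 UMIs and 185 of 267 S100a11 UMIs in p16-LRTD, and 151 of 157, 168 of 192 and 23 of 49 in p16-Alb-LRTD. In the remaining 220 and 164 cells S100a11 stood at 19.9 and 6.33 CPM (log2 ratio −1.65), S100a6 at 23.8 and 5.84 CPM (−2.03) and S100a10 at 24.3 and 9.49 CPM (−1.35). S100a4 had 47 and 6 UMIs there (−2.97). The 4 members thus remained lower in p16-Alb-LRTD without these cells, whereas S100a1 no longer did (0.09).

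**Figure D5:**
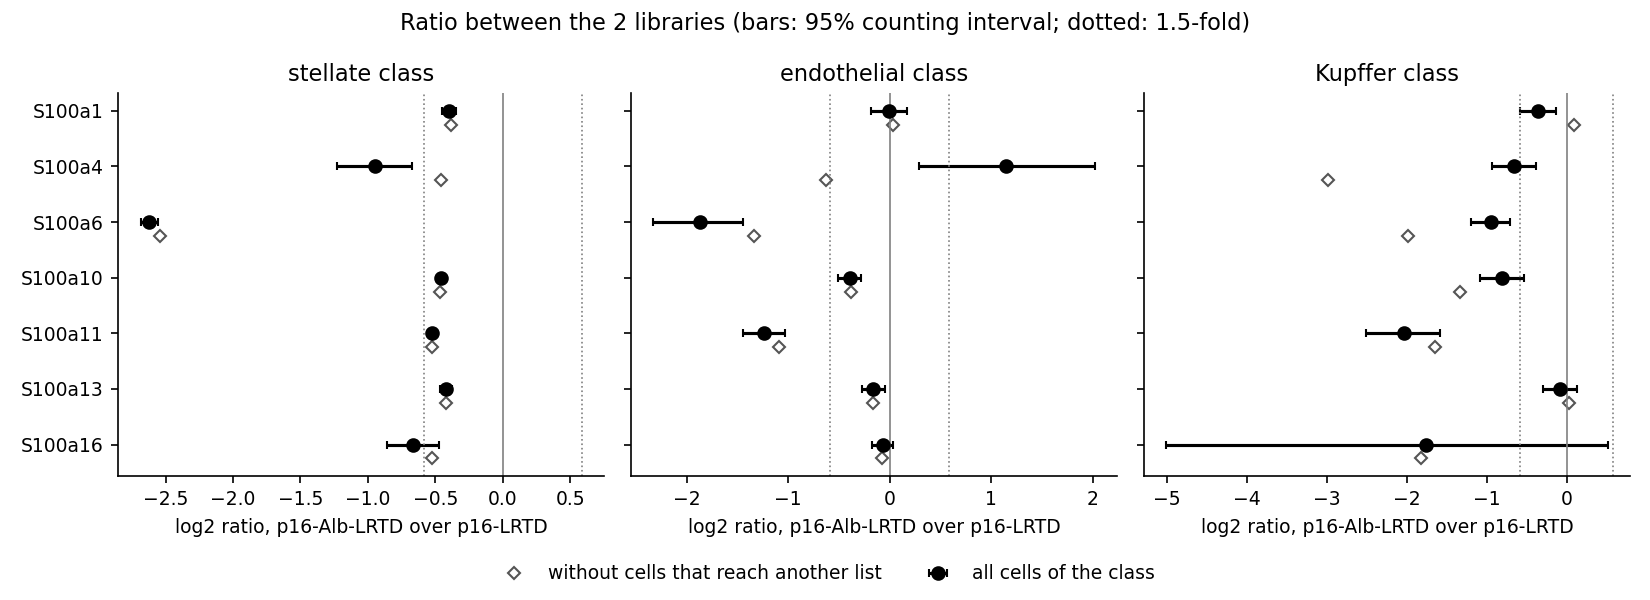
Log2 ratio of each member, p16-Alb-LRTD over p16-LRTD, in stellate, endothelial and Kupffer cells, with 95% counting intervals (filled points), and the same without cells that reached a list of other cell types (open diamonds); the x axes differ between panels. S100a6 is at −2.62 in stellate cells and −2.54 without such cells, and endothelial S100a4 moves from 1.14 to −0.62.

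S100a11 was thus lower in p16-Alb-LRTD in all 3 classes (log2 ratios −0.53, −1.23 and −2.04), as was S100a10 (−0.46, −0.39 and −0.81). S100a6 was lower in all 3 as well (−2.62, −1.87 and −0.95), with the endothelial value resting on the few cells described. Of all genes with a mean of at least 5 CPM, 60.7% in stellate, 60.3% in endothelial and 57.6% in Kupffer cells were also below 0. In endothelial cells 23.9% of these genes had a lower ratio than S100a10. Whether the ratios differ between classes was not tested. Levels were also set against Dcn (decorin), an abundant stellate transcript. S100a6 stood at 5.88 and 0.795 UMIs per 1000 Dcn UMIs in the stellate cells of either library, at 150 and 50.6 in endothelial cells, where 2 cells held most of the p16-LRTD S100a6 UMIs, and at 344 and 193 in Kupffer cells. For S100a11 the values were 33.9 and 19.5, 444 and 234, and 186 and 49.3. What part free RNA has in the levels of the small classes was not tested.

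Barcodes outside the 3 classes held some members at higher levels than any class. In barcodes with the fibroblast or mesothelial list, 90 in p16-LRTD and 32 in p16-Alb-LRTD, S100a6 reached 3492 and 2092 CPM, S100a11 1400 and 1143 CPM and S100a1 788 and 621 CPM. In those with the infiltrating macrophage list, 60 and 47, S100a6 was at 1252 and 1661 CPM and S100a4 at 719 and 1040 CPM. Both were here higher in p16-Alb-LRTD, unlike in the Kupffer class. The 12 and 14 lymphocyte-list barcodes held S100a6 at 864 and 1143 CPM. In the hepatocyte-list barcodes, 11 and 4, S100a6 was lower in p16-Alb-LRTD, at 10.2 CPM (1 UMI) against 1177 CPM (290 UMIs) in p16-LRTD. These groups are small and no cell type was assigned to them beyond the list they reached.

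Of the 11 other S100 symbols, the S100-binding nuclear protein S100pbp, which is not a family member, was the only one with a mean of 5 CPM or more in a class, and its level was alike in stellate cells (23.8 CPM in both libraries). S100a8, a neutrophil and monocyte alarmin, stood at 6.56 and 3.35 CPM in Kupffer cells from 39 and 15 UMIs.

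A list of 14 partners and receptors of S100 proteins was drawn up with the members' values known. In stellate cells 13 had a mean of at least 5 CPM and none was 1.5-fold lower and 1 was 1.5-fold higher, where 3.05% and 3.03% of all genes were. The median log2 ratio was −0.19 over these 13 and −0.05 over all genes. Anxa2, the partner of S100a10, stood at 476 and 376 CPM (−0.34), and Anxa1, the partner of S100a11, at 366 and 322 CPM (−0.19). Myh9, a non-muscle myosin bound by S100a4, stood at 686 and 513 CPM (−0.42). Cacybp, the partner of S100a6, was the single gene past 1.5-fold and lay in the other direction, at 59.9 CPM in p16-LRTD against 90.5 CPM (0.60, 0.56 to 0.64).

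In endothelial cells 3 of 13 partners were at least 1.5-fold lower in p16-Alb-LRTD, where 13.5% of all genes were, namely Anxa1 (57.7 and 28.1 CPM, log2 ratio −1.04), Anxa6 (8.45 and 4.27 CPM, −0.99) and Anxa11 (52.5 and 30.1 CPM, −0.80). In Kupffer cells 3 of 12 were, where 6.83% of all genes were, namely Anxa1 (48.6 and 12.97 CPM, −1.91), the giant scaffold protein Ahnak (41.7 and 26.8 CPM, −0.64) and the liprin Ppfibp1 (22.0 and 14.1 CPM, −0.65). The partners were not compared without the cells that reached a list of other types. Of the receptors, Ager did not reach 5 CPM in any class, and Tlr4 was slightly higher in p16-Alb-LRTD stellate cells (18.1 and 21.5 CPM, 0.25) and Kupffer cells (105 and 124 CPM, 0.24). In endothelial cells Tlr4 stood at 73.3 and 66.8 CPM (−0.13, −0.36 to 0.09). Bsg, another S100 receptor, was lower in stellate cells (519 and 385 CPM, −0.43).

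Among 13 other EF-hand proteins, such as sorcin and the reticulocalbins, none was past 1.5-fold in stellate cells, where 3.05% of all genes were lower and 3.03% higher by that much, or in endothelial cells, where 13.5% and 6.44% were. In stellate cells 12 of the 13 had a ratio below 0 with a median of −0.25, and over all genes 60.7% were below 0 with a median of −0.05. In Kupffer cells 1 of the 13 was 1.5-fold lower, against 6.83% of all genes, the reticulocalbin Rcn3 at 7.91 and 3.35 CPM (−1.24, 47 and 15 UMIs).

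The genes whose ratios in the 3 classes came closest to those of S100a6, by Euclidean distance among 6897 candidates, were Lgals3 (distance 1.03), Stmn1 (1.06), Mki67 (1.33), Lmnb1 (1.70) and Cdk1 (1.80). The distance uses the endothelial S100a6 ratio of −1.87, which was 0.14 without 2 cells, so this order rests in part on those cells. Candidates needed 10 CPM in a single library of each class, and Lgals3, Mki67, Lmnb1 and Cdk1 reached it in some class in p16-LRTD alone, so that the choice itself favoured genes with a difference. Lgals3, which encodes galectin-3, stood at 15.3 and 4.98 CPM in stellate cells and at 1677 and 741 CPM in Kupffer cells. Stmn1, Mki67, Lmnb1 and Cdk1 are expressed in dividing cells, and dividing cells were rarer in p16-Alb-LRTD also among endothelial (13 of 430 and 1 of 283) and Kupffer cells (10 of 283 and 2 of 178). Mki67 was nevertheless close in Kupffer cells, at 13.6 and 12.7 CPM (log2 ratio −0.10). Without dividing cells the stellate log2 ratio of S100a6 was −2.61.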

How the data were processed

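Single-cell libraries were prepared with the 10x Genomics 3' kit, v3.1. The authors made raw UMI counts per gene and barcode with Cell Ranger 7.0.1 and mm10, and deposited these filtered count matrices without normalization. Whether intronic reads were counted is not given in the sources used here. Tag counts at the 3' end were not scaled by gene length, and whether they depend on it was not tested. Reads of overlapping genes may be split.

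All later steps used the deposited counts. Following the study, barcodes with over 5% mitochondrial UMIs, fewer than 2000 or more than 7000 genes, or over 50000 UMIs were left out. No doublet caller was run, and cells that reached the scores of several classes (245 and 221) were left out. UMIs were summed per class and library and given as CPM. Intervals are 95% exact Poisson (levels), exact conditional binomial (ratios) and Clopper-Pearson (shares). A single library of each genotype allows no test, so members are counted past a fixed 1.5-fold. Thinning was to 5000 UMIs. The members, lists and rules were chosen with earlier results of these data known. Named genes are the members, other S100 symbols with at least 5 CPM in a class, the partner and EF-hand genes past 1.5-fold with a few further examples picked after their values were seen, and the 5 genes nearest to S100a6 among those with at least 10 CPM in a library in each class. S100a8 and the single check markers were named after their values were seen. A gene of the EF-hand list was left out and is not reported here, and a gene of a marker list is used but not named. Positions come from GENCODE vM21. Ratios and intervals were checked on simulated counts. Thinning was checked on measured p16-LRTD cells, and only for the total of UMIs it left. Python 3.11.15, NumPy 2.4.6, SciPy 1.17.1, R 4.3.3 and edgeR 4.0.16 (TMM scaling only) were used.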

Additional observations from a re-analysis of the deposited data

Results flagged for a closer look

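Some genes lay below 0 in 1 class and above 0 in another, with both counting intervals clear of 0. With 1 library per genotype the difference between classes was not tested. S100a4 had log2 ratios (p16-Alb-LRTD over p16-LRTD) of −0.95 in stellate, −0.66 in Kupffer and 1.14 in endothelial cells, the last from 4 cells of p16-Alb-LRTD and 11 of p16-LRTD. A single infiltrating macrophage-list cell held 27 of the 30 p16-Alb-LRTD UMIs, and without such cells the endothelial ratio was −2.04. With no upper limits on genes and UMIs the stellate and Kupffer ratios were 0.27 and 0.14. Among the partners, Anxa6 was at −0.99 in endothelial and 0.30 in Kupffer cells, and Ahnak at −0.21 in stellate, −0.64 in Kupffer and 0.49 in endothelial cells. Among the other EF-hand genes, Efhd2 was at −0.38 in stellate and 0.36 in Kupffer cells, and Rcn1 at −0.32 in stellate and 0.36 in endothelial cells.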

How the results depend on the processing

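No paired analysis was possible because a genotype was represented by a single library, and for the same reason no replicate could be left out. Of 365 alternative log2 ratios under 19 settings, 11 changed sign against a called value and 67 others left the counting interval. The changes of sign were stellate S100a4 without upper limits on genes and UMIs (0.27), stellate S100a16 under the marker rule alone (0.0425) and with equal weight to 4 collagen bins (0.37), endothelial S100a4 with a mitochondrial limit of 10% (−0.0452), without the 10% of cells with the most UMIs (−0.60), without cells of any other list (−0.62) and without infiltrating macrophage-list cells (−2.04), endothelial S100a6 without fibroblast or mesothelial-list cells (0.14), Kupffer S100a1 without cells of any other list (0.0945) and without infiltrating macrophage-list cells (0.0872), and Kupffer S100a4 without upper limits (0.14). The S100a6 ratio in stellate cells ran from −2.70 to −0.54, with the 8-bin weighting as the smallest, and the S100a11 ratio from −0.54 to −0.39 in stellate, −1.25 to −0.53 in endothelial and −2.33 to −1.55 in Kupffer cells. In Kupffer cells S100a6 ran from −4.18 to −0.24, S100a4 from −4.72 to 0.14 and S100a10 from −2.28 to −0.53. Settings that leave out single lists or shared barcodes, and the 8 bins, were chosen after seeing the data.

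The number of members at least 1.5-fold lower in stellate cells (3) was 1 without cells of any other list and 1 at a fold of 2, and 2 under 7 further settings (means of per-cell CPM, no upper limits, the rule alone, cells with 10000 to 30000 UMIs, without the 10% of cells with the most UMIs, without fibroblast or mesothelial-list cells, and equal weight to 4 collagen bins). In endothelial cells (2) it was 1 without upper limits, under the rule alone and without fibroblast or mesothelial-list cells, and 3 without the 10% of cells with the most UMIs and without cells of any other list or of the infiltrating macrophage list. In Kupffer cells (5) it was 3 without upper limits, under the rule alone, with thresholds 1.5 times as high and without Csf1r, 2 at a fold of 2, and 4 with the 10% mitochondrial limit. The endothelial member 1.5-fold higher (1) was lost, to 0, with means of per-cell CPM, the 10% mitochondrial limit, the rule alone, without the 10% of cells with the most UMIs, and without cells of any other list or of the infiltrating macrophage list. Thinned to 3000 UMIs, the shares of stellate cells with S100a6 were 12.6% and 4.03%. Those of endothelial cells with S100a16 were 62.1% in p16-LRTD and 53.7% in p16-Alb-LRTD, the opposite direction to 75.8% and 81.6% at 5000 UMIs. The shares of all genes past 1.5-fold lower at means of at least 1 and 20 CPM were 5.62% and 1.83% in stellate, 18.0% and 9.27% in endothelial and 12.8% and 2.68% in Kupffer cells. TMM scaling shifted all ratios by 0.04 to 0.08. The cause of these changes was not tested beyond the cells each setting leaves out.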
